A study of Homo sapiens with 45 samples.

Results

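The knockdown of MDC1 in the human breast cancer cell line MM330 (MDA MB 330), a line the submitters group with invasive lobular carcinoma, was measured across all genes. It comprises 6 RNA libraries, all of which were compared: 3 transfected with an siRNA against MDC1 and given estradiol (siMDC1_E2), and 3 transfected with a non-targeting siRNA and given estradiol (siNT_E2). They are 6 of the 15 libraries of this line and of the 45 libraries of the study. The other MM330 groups, also of 3 libraries, received siRNA against the estrogen receptor with estradiol (siER_E2), siRNA against FOXA1 with estradiol (siFOXA1_E2), or the non-targeting siRNA with vehicle (siNT). The same 5 groups were made in the lobular line MM134 (MDA MB 134VI) and in the ductal line HCC1428. All cells, controls included, were kept for 3 days in medium with charcoal-stripped serum, which is poor in steroid hormones, before transfection. Estradiol (E2, 100 pM) or 0.01% ethanol was added 24 h after the siRNA, and RNA was collected 24 h after that. No group of MM330 used here was left without an siRNA. The labels name no separate cultures behind the 3 libraries of each group, and p-values then measure the spread between these libraries, which may be technical.

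MDC1, mediator of DNA damage checkpoint protein 1, is a scaffold of the DNA damage response. It binds the phosphorylated form of histone H2AX beside a double-strand break and recruits ubiquitin ligases, which in turn bring in TP53BP1 and BRCA1. The estrogen receptor, encoded by ESR1, is a transcription factor that binds DNA in the presence of estradiol and raises or lowers its targets in luminal breast cells together with coactivators and corepressors. FOXA1 opens chromatin at many of its sites. The study compared how the estradiol response of lobular and ductal cells depends on MDC1, on the receptor and on FOXA1.

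The 6 libraries held 26.983, 29.286 and 29.595 M counts in siMDC1_E2 and 29.632, 29.106 and 28.886 M counts in siNT_E2 (M, mega). Levels are given as counts per M counts (CPM), which are not scaled by gene length and so compare libraries, not genes. Epithelial and luminal transcripts were present in all 6, with KRT8 at 2319 to 3377 CPM, EPCAM at 412 to 448 CPM and GATA3 at 362 to 403 CPM. The fibroblast, immune and endothelial genes COL1A2, COL3A1, DCN, PDGFRA, FAP, PTPRC, CD3D, CD3E and CDH5 had 0 counts in all 6. Of 13 fibroblast markers 7 were at 0 and the list summed to 35.6 to 39.1 CPM in siMDC1_E2 and 46.5 to 48.8 CPM in siNT_E2. Of the 3 tested, 2 were called (66.7% beside 20.8% of all genes), COL1A1 (-0.35 ± 0.07) and COL5A1 (-0.41 ± 0.10), both lower in siMDC1_E2. In RNA from bulk cells, fewer cells that express a gene and less of its RNA per cell cannot be told apart. Of 11 endothelial markers 3 were at 0 and the list summed to 14.5 to 16.1 CPM in siMDC1_E2 and 15.3 to 17.6 CPM in siNT_E2. Of the list's 3 members tested, 1 was called (33.3%). Its member VWF, von Willebrand factor, was called lower, with 2.81, 3.92 and 2.95 CPM in siMDC1_E2, against 5.86, 6.93 and 6.799 CPM in siNT_E2 (-1.01 ± 0.20, adjusted p = 0.00138), and every knockdown library was below every control. Of 15 immune markers 6 were at 0 and the list summed to 10.5 to 11.3 CPM in siMDC1_E2 and 8.85 to 10.7 CPM in siNT_E2. One library of each group had a higher share of counts on processed pseudogenes: siMDC1_E2 replicate 3 with 0.359% and siNT_E2 replicate 1 with 0.344%, against 0.123% to 0.129% in the other 4. Both also stood apart from the rest of their groups along a principal component, and counts of called list members in MM330 are given without such libraries as well. Of the fibroblast markers 2 and of the endothelial markers 1 were called without such libraries, all lower. Numbers of calls without these libraries, and with a term for their share, are given below. What caused the higher share was not tested.

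MDC1 (ENSG00000137337.14, GRCh38 chr6:30699807-30717889, minus strand) had 39.2, 43.9 and 36.2 CPM in siMDC1_E2, against 199.6, 199.5 and 187 CPM in siNT_E2. All 3 knockdown libraries were far below every control library. The log2 fold change was -2.30 ± 0.06 (SE), a 4.91-fold lower level (adjusted p = 5.53e-13). Adjusted p values here and below come from edgeR's quasi-likelihood test with Benjamini-Hochberg adjustment over all genes tested, and a value after ± beside a log2 fold change is its SE. The share of all genes tested whose groups did not overlap is not given here. Statements that every knockdown library lay above or below every control therefore describe single genes and add no support to a call. MDC1 itself moved with the other treatments. It had 105, 98.5 and 92.7 CPM in siER_E2 and 119, 119.5 and 118 CPM in siFOXA1_E2, and 138, 137 and 139.7 CPM in siNT, where siNT_E2 was higher than siNT by 0.50 ± 0.06 on the log2 scale (adjusted p = 3.11e-06). The transcript was therefore lower in siMDC1_E2 than in any other MM330 group. MDC1-AS1, an antisense gene at the locus, had 0, 1 and 1 counts in siMDC1_E2 and 9, 2 and 0 counts in siNT_E2, too few to be tested. The library kit keeps strand, but whether the counting used it is not given in the sources used here, so a gene and its antisense partner may not have been told apart.

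**Figure D1:**
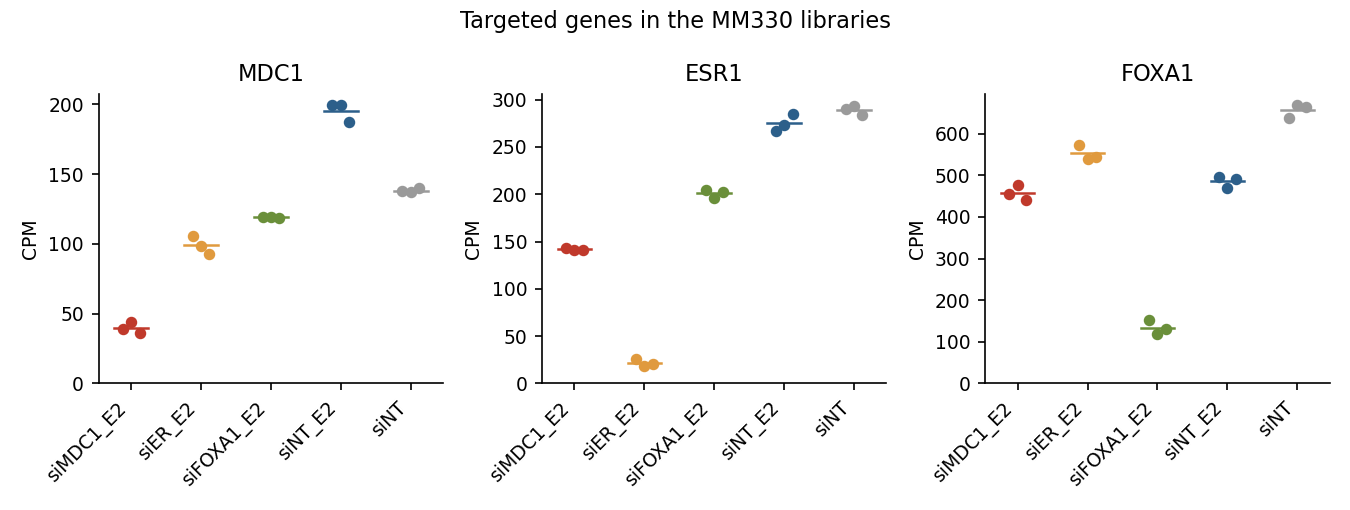
CPM of MDC1, ESR1 and FOXA1 in each of the 15 MM330 libraries (points, 3 per group), with the group mean as a line. MDC1 lies at 36.2 to 43.9 CPM in siMDC1_E2 and at 187 to 199.6 CPM in siNT_E2. ESR1 lies at 141 to 143 CPM in siMDC1_E2 and at 267 to 285 CPM in siNT_E2.

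ESR1 (ENSG00000091831.23, chr6:151656691-152129619, plus strand), the estrogen receptor gene, was lower after MDC1 knockdown, with 143, 141 and 141 CPM in siMDC1_E2, against 267, 273 and 285 CPM in siNT_E2. The 3 knockdown libraries lay close together and well below every control library. The log2 fold change was -0.96 ± 0.07, a 1.94-fold lower level (adjusted p = 4.50e-08). The siRNA against the receptor left 25.7, 18.2 and 20.6 CPM, and siNT, without estradiol, had 290, 293 and 284 CPM. FOXA1 (chr14:37589984-37596059, minus strand) had 454, 476 and 441 CPM in siMDC1_E2, against 495, 471 and 491 CPM in siNT_E2. These ranges overlapped and FOXA1 was not called (-0.09 ± 0.06, adjusted p = 0.401).

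Of 57353 symbols in the table, 17834 had enough counts in MM330 to be tested, and 13170 of these are protein coding. At an adjusted p below 0.05, 3710 genes were called (20.8% of those tested), 1855 higher in siMDC1_E2 (10.4%) and 1855 lower (10.4%). Most changes were small: the median absolute log2 fold change of the called genes was 0.32, and 68 genes were higher and 89 lower by 2-fold or more (0.381% and 0.499% of those tested). Without the libraries of higher pseudogene share, which leaves 2 libraries in each compared group, 2208 genes were called, 1088 higher and 1120 lower. Of the 3710 genes, 2161 were called in the same direction there and all 3710 had the same sign. With all libraries kept and a term for the higher or lower share, 3894 genes were called. Of the 3710 genes, 3644 were called in the same direction with that term, which was added after seeing the data. The gene lists below held 726 genes, all of them in the table, of which 659 were tested and 235 called.

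**Figure D2:**
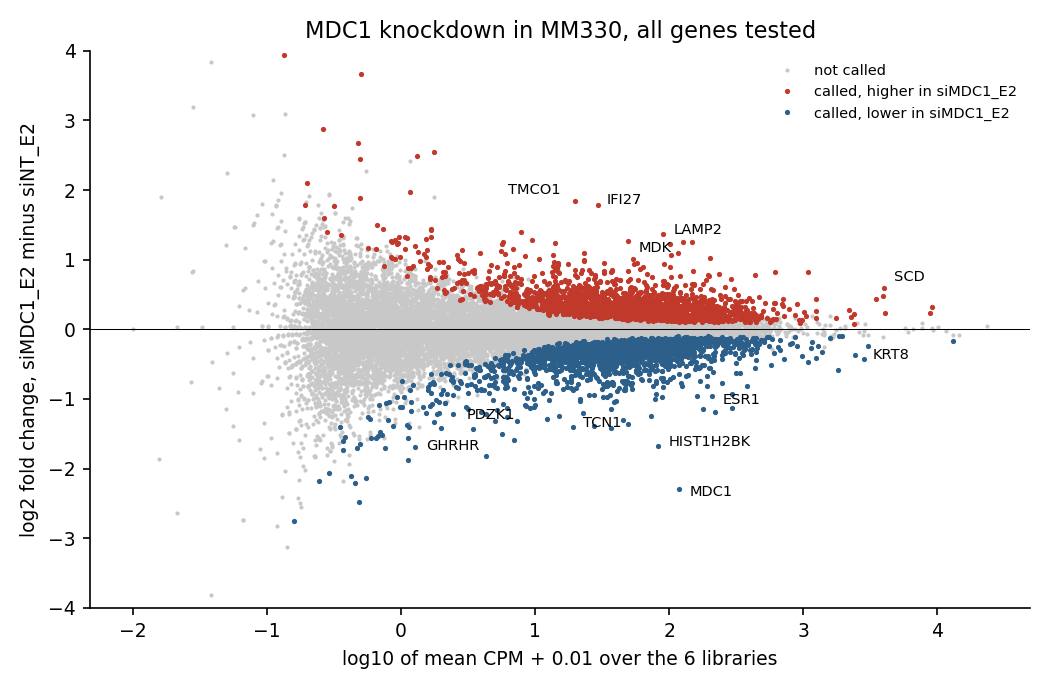
Log2 fold change of siMDC1_E2 over siNT_E2 against the log10 of the mean CPM of the 6 libraries, for the 17834 genes tested. Red points are the 1855 genes called higher and blue points the 1855 called lower, and MDC1 lies at -2.30.

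Genes that estradiol induces in breast cells fell in part. Of 57 such targets tested, 23 fell, 5 rose and 29 did not pass (49.1% called beside 20.8% of all genes), with a median log2 fold change of -0.14 beside 0.0016 over all genes tested. Without the libraries of higher pseudogene share, 21 fell and 3 rose, with a median of -0.19, and 3 rose without siNT_E2 replicate 3. In the same cells 46 of the 57 were called lower in siER_E2 than in siNT_E2 (17.4% of all genes were), with a median of -1.48, and 46 were called higher in siNT_E2 than in siNT (13.7% of all genes), with a median of 1.33. These comparisons share the siNT_E2 libraries with that of siMDC1_E2, so their values are only set side by side.

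The panel of 8 marker genes of the response did not move as one. GREB1, a receptor cofactor that is itself an estradiol target, had 1181, 1300 and 1213 CPM in siMDC1_E2, against 1521, 1572 and 1556 CPM in siNT_E2. Every knockdown library was below every control (-0.33 ± 0.05, adjusted p = 0.000216), and all were well above the siNT mean of 336 CPM. TFF1, a secreted trefoil peptide, had 3721, 3927 and 3763 CPM in siMDC1_E2, against 3903, 4235 and 4141 CPM in siNT_E2. One knockdown library exceeded the lowest control, and TFF1 was not called (-0.11 ± 0.11, adjusted p = 0.603), while its siNT mean was 191 CPM. PGR, the progesterone receptor, had 1.72, 2.55 and 2.99 CPM in siMDC1_E2, against 4.21, 3.905 and 4.41 CPM in siNT_E2 (-0.78 ± 0.23, adjusted p = 0.0242). Its groups did not overlap, but at these few counts the call was lost in 4 of the 6 fits that each leave out 1 library (siMDC1_E2 replicate 1 or 2, siNT_E2 replicate 1 or 3).

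RET, a receptor tyrosine kinase, had 31.1, 31.3 and 27.7 CPM in siMDC1_E2, against 55.9, 51.2 and 55.3 CPM in siNT_E2 (-0.85 ± 0.08, adjusted p = 6.04e-07). TCN1, a vitamin B12 binding protein, had 10.4, 11.02 and 9.89 CPM in siMDC1_E2, against 24.6, 26.6 and 31.8 CPM in siNT_E2 (-1.41 ± 0.18, adjusted p = 3.25e-05). PDZK1, a scaffold protein with PDZ domains, had 6.74, 7.54 and 6.904 CPM in siMDC1_E2, against 17.3, 16.03 and 18.7 CPM in siNT_E2 (-1.30 ± 0.17, adjusted p = 3.41e-05). In all 3 genes every knockdown library was below every control, yet above the siNT mean, which was 7.49 CPM for RET, 0.0579 CPM for TCN1 and 0.0664 CPM for PDZK1. MYC, a growth-promoting transcription factor, had 24.9, 23.4 and 21.6 CPM in siMDC1_E2, against 21.3, 18.4 and 21.1 CPM in siNT_E2 and a siNT mean of 0.456 CPM. The knockdown libraries of MYC were all slightly higher than the controls, without a call (0.20 ± 0.12, adjusted p = 0.312). The chemokine CXCL12 had 0.749, 0.413 and 0.431 CPM in siMDC1_E2, against 1.21, 1.15 and 1.16 CPM in siNT_E2, from 12 to 36 counts a library. All 3 knockdown values were lower, but CXCL12 was not called (-1.15 ± 0.44, adjusted p = 0.0917).

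**Figure D3:**
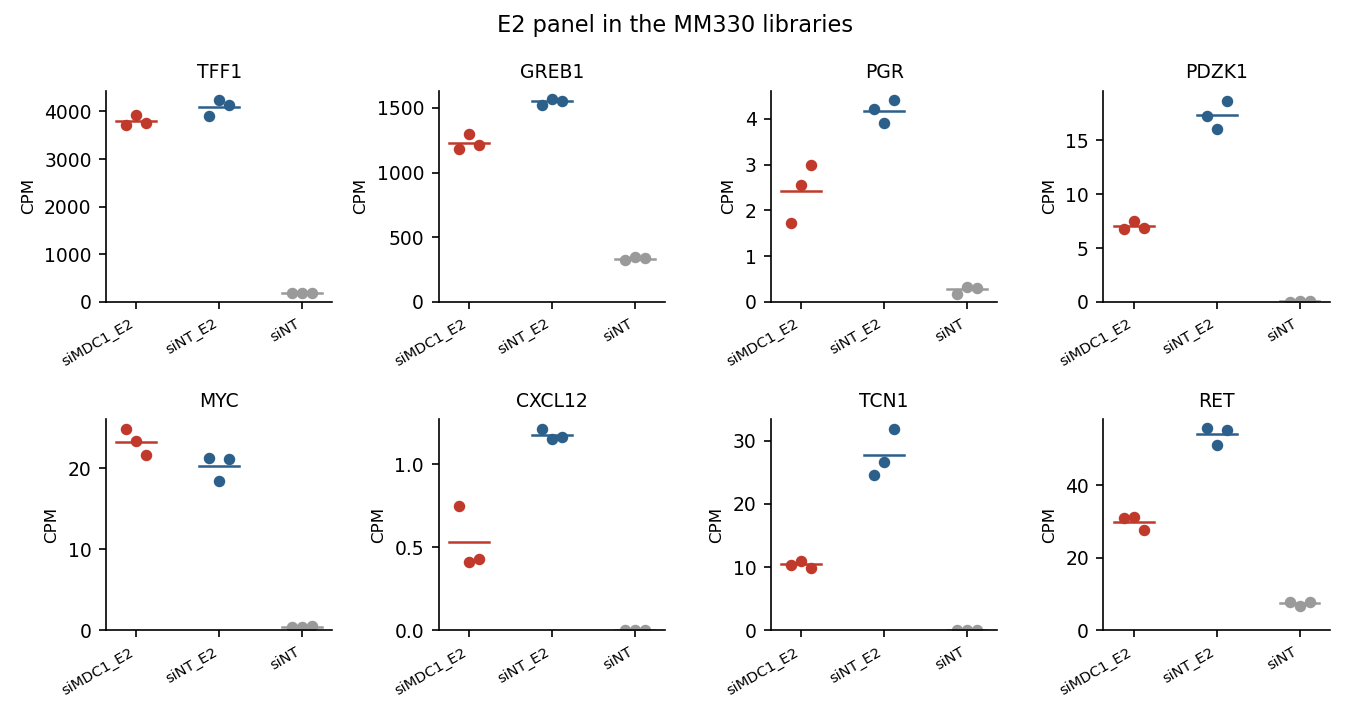
CPM of 8 estradiol-induced genes in the siMDC1_E2, siNT_E2 and siNT libraries of MM330 (points, 3 per group, with the mean as a line, each panel with its own axis from 0). GREB1, PGR, PDZK1, TCN1 and RET were called lower in siMDC1_E2 than in siNT_E2, and TFF1, MYC and CXCL12 were not called.

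Among the other induced targets with the smallest p, PRSS23, a secreted serine protease, had 269, 291 and 267 CPM in siMDC1_E2, against 447, 493 and 509 CPM in siNT_E2 (-0.81 ± 0.05, adjusted p = 1.29e-08). PKIB, an inhibitor of protein kinase A, had 37.4, 40.2 and 37.5 CPM in siMDC1_E2, against 63.3, 63.6 and 70.3 CPM in siNT_E2 (-0.78 ± 0.05, adjusted p = 2.86e-08). SIAH2, a ubiquitin ligase, had 243, 256 and 246 CPM in siMDC1_E2, against 367, 383 and 401 CPM in siNT_E2 (-0.63 ± 0.06, adjusted p = 6.36e-07). All 3 were lower in every knockdown library, and their siNT means, 127 CPM for PRSS23, 34.3 CPM for PKIB and 104 CPM for SIAH2, were lower again. The 5 induced targets that rose were TSKU, IGFBP4, CA12, RARA and AGR2. TSKU, a secreted proteoglycan, had 186, 186 and 186 CPM in siMDC1_E2, against 113, 111 and 133 CPM in siNT_E2 (0.64 ± 0.08, adjusted p = 2.10e-05), although its siNT mean of 47.8 CPM was lower than both. CA12, a carbonic anhydrase, had 224, 216 and 225 CPM in siMDC1_E2, against 177, 177 and 166 CPM in siNT_E2 (0.36 ± 0.04, adjusted p = 2.58e-06), with 199 CPM in siNT. RARA, a retinoic acid receptor, had 160.5, 183 and 169 CPM in siMDC1_E2, against 146, 129.6 and 141 CPM in siNT_E2 (0.30 ± 0.06, adjusted p = 0.00195).

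Genes that estradiol lowers in breast cells rose more often than they fell. Of 22 tested, 10 rose and 4 fell (63.6% called beside 20.8% of all genes), with a median of 0.22, and 10 rose and 1 fell without the libraries of higher pseudogene share. The median was 0.13 without siNT_E2 replicate 3, and 2 fell without siMDC1_E2 replicate 1, 2 without siMDC1_E2 replicate 3 and 2 without siNT_E2 replicate 2. PSCA, a surface antigen, had 74.6, 69.1 and 71.6 CPM in siMDC1_E2, against 40.4, 34.8 and 37.5 CPM in siNT_E2 (0.94 ± 0.07, adjusted p = 4.50e-08), with a siNT mean of 156 CPM. TXNIP, a thioredoxin-binding protein, had 342, 356 and 364 CPM in siMDC1_E2, against 276, 279 and 285 CPM in siNT_E2 (0.34 ± 0.03, adjusted p = 2.11e-06), and IL1R1, an interleukin 1 receptor, had 57.01, 51.1 and 50.7 CPM in siMDC1_E2, against 36.1, 36.1 and 38.7 CPM in siNT_E2 (0.52 ± 0.05, adjusted p = 2.36e-06). In these 3 genes every knockdown library was above every control. CCNG2, an unconventional cyclin, went the other way with 28.00, 28.1 and 26.8 CPM in siMDC1_E2, against 46.1, 45.9 and 48.4 CPM in siNT_E2 (-0.76 ± 0.05, adjusted p = 2.76e-08). Its siNT mean was 97.6 CPM, so siMDC1_E2 lay below both controls, whereas siER_E2 was above siNT_E2 by 0.66. ERBB2, the HER2 receptor, had 8113, 7969 and 7989 CPM in siMDC1_E2, against 7500, 7545 and 7550 CPM in siNT_E2 and 15290 CPM on average in siNT. All 3 knockdown libraries were slightly higher than the siNT_E2 ones, but the test did not call ERBB2 (0.09 ± 0.03, adjusted p = 0.0553).

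Partners of the receptor on chromatin changed in both directions. Of 38 coactivators, corepressors and cooperating factors tested, 12 fell and 8 rose (52.6% called beside 20.8% of all genes), with a median of -0.05, and 7 rose and 9 fell without the libraries of higher pseudogene share. TFAP2C, a transcription factor that acts beside the receptor in luminal cells, had 135, 144 and 137 CPM in siMDC1_E2, against 237, 234 and 258 CPM in siNT_E2 (-0.81 ± 0.05, adjusted p = 1.18e-08). The corepressor TLE3 had 166, 174 and 168 CPM in siMDC1_E2, against 218, 221 and 223 CPM in siNT_E2 (-0.38 ± 0.04, adjusted p = 9.93e-07). NRIP1, a corepressor that is itself induced by estradiol, had 98.8, 105 and 99.9 CPM in siMDC1_E2, against 124, 129 and 138 CPM in siNT_E2 (-0.36 ± 0.05, adjusted p = 3.82e-05). These 3 were lower in every knockdown library.

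Of 32 nuclear receptor genes tested, 8 rose and 7 fell (46.9% called beside 20.8% of all genes), with a median of 0.07. Of them, 4 rose and 7 fell without the libraries of higher pseudogene share, and 5 rose without siMDC1_E2 replicate 2. The median lay between 0.04 without siNT_E2 replicate 3 and 0.12 without siMDC1_E2 replicate 1. The thyroid hormone receptor genes moved in opposite directions. THRB (chr3:24117153-24495756) had 26.3, 25.2 and 26.99 CPM in siMDC1_E2, against 66.7, 62.6 and 64.4 CPM in siNT_E2 (-1.30 ± 0.08, adjusted p = 9.53e-09). THRA had 363, 355 and 368 CPM in siMDC1_E2, against 234, 226 and 199 CPM in siNT_E2 (0.72 ± 0.05, adjusted p = 3.57e-08). Neither gene's groups overlapped, and the siNT means, 60.2 CPM for THRB and 241 CPM for THRA, were near those of siNT_E2. NR2F2, an orphan receptor also called COUP-TFII, had 74.1, 71.5 and 65.3 CPM in siMDC1_E2, against 107, 109 and 104 CPM in siNT_E2 (-0.60 ± 0.06, adjusted p = 1.36e-06), lower in every knockdown library and close to its siNT mean of 73.3 CPM.

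Genes of double-strand break signalling, where MDC1 acts, were called about as often as other genes. Of 36 tested, 5 fell and 3 rose, 22.2% called against 20.8% of all genes, with a median of -0.03, which lay between -0.04 without siNT_E2 replicate 1 and -0.01 without siMDC1_E2 replicate 2. Of the same genes 1 rose and 1 fell without the libraries of higher pseudogene share, and 3 fell without siMDC1_E2 replicate 1, 3 without siMDC1_E2 replicate 2, 3 without siMDC1_E2 replicate 3, 3 without siNT_E2 replicate 1 and 1 without siNT_E2 replicate 3. Higher calls came to 1 without siNT_E2 replicate 3. RNF8, the ubiquitin ligase that MDC1 recruits, had 9.096, 9.33 and 9.26 CPM in siMDC1_E2, against 9.32, 9.81 and 9.84 CPM in siNT_E2 (-0.07 ± 0.10, adjusted p = 0.75). TP53BP1 had 128, 121 and 127 CPM in siMDC1_E2, against 126, 128 and 129.8 CPM in siNT_E2 (-0.03 ± 0.04, adjusted p = 0.646). Neither was called, and neither were ATM, the kinase that phosphorylates H2AX (0.00 ± 0.08, adjusted p = 0.987), RNF168 (-0.04 ± 0.06, adjusted p = 0.719) or BRCA1 (-0.04 ± 0.13, adjusted p = 0.896). BRCC3, a deubiquitinase of the BRCA1-A complex, was lower in every knockdown library, with 68.9, 65.8 and 66.7 CPM in siMDC1_E2, against 84.7, 78.7 and 81.97 CPM in siNT_E2 (-0.29 ± 0.04, adjusted p = 7.22e-05). H2AFX, the gene of histone H2AX, had 255, 262 and 252 CPM in siMDC1_E2, against 197, 222 and 188 CPM in siNT_E2 (0.34 ± 0.09, adjusted p = 0.0114). It was higher in every knockdown library, and its adjusted p without the libraries of higher pseudogene share was 0.0796. The call of H2AFX was also lost without siNT_E2 replicate 3.

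Of 29 genes of homologous recombination and crosslink repair, 2 rose and 0 fell (6.9% called beside 20.8% of all genes), with a median of 0.13, and 1 rose and 0 fell without the libraries of higher pseudogene share. Leaving out 1 library in turn left 1 to 2 higher and 0 to 1 lower. RMI2, a subunit of the BLM helicase complex, had 16.2, 15.2 and 15.2 CPM in siMDC1_E2, against 9.66, 10.8 and 8.78 CPM in siNT_E2 (0.67 ± 0.11, adjusted p = 0.000354). Every knockdown library of RMI2 was above every control. Of 17 genes tested around MDC1 on chromosome 6, MDC1 included, 4 were called (23.5% beside 20.8% of all genes). With all libraries 1 rose and 3 fell, and 1 rose and 1 fell without those of higher pseudogene share. Of the 16 neighbours, DDR1, a collagen receptor, was called higher (0.36 ± 0.04) and PPP1R10 and DHX16 were called lower (-0.14 ± 0.03 and -0.14 ± 0.04). Both of these lower calls were lost without the libraries of higher pseudogene share, and that of DHX16 in 4 of the 6 fits without 1 library (siMDC1_E2 replicate 2 or 3, siNT_E2 replicate 1 or 2). No neighbour fell to the extent of MDC1.

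**Figure D4:**
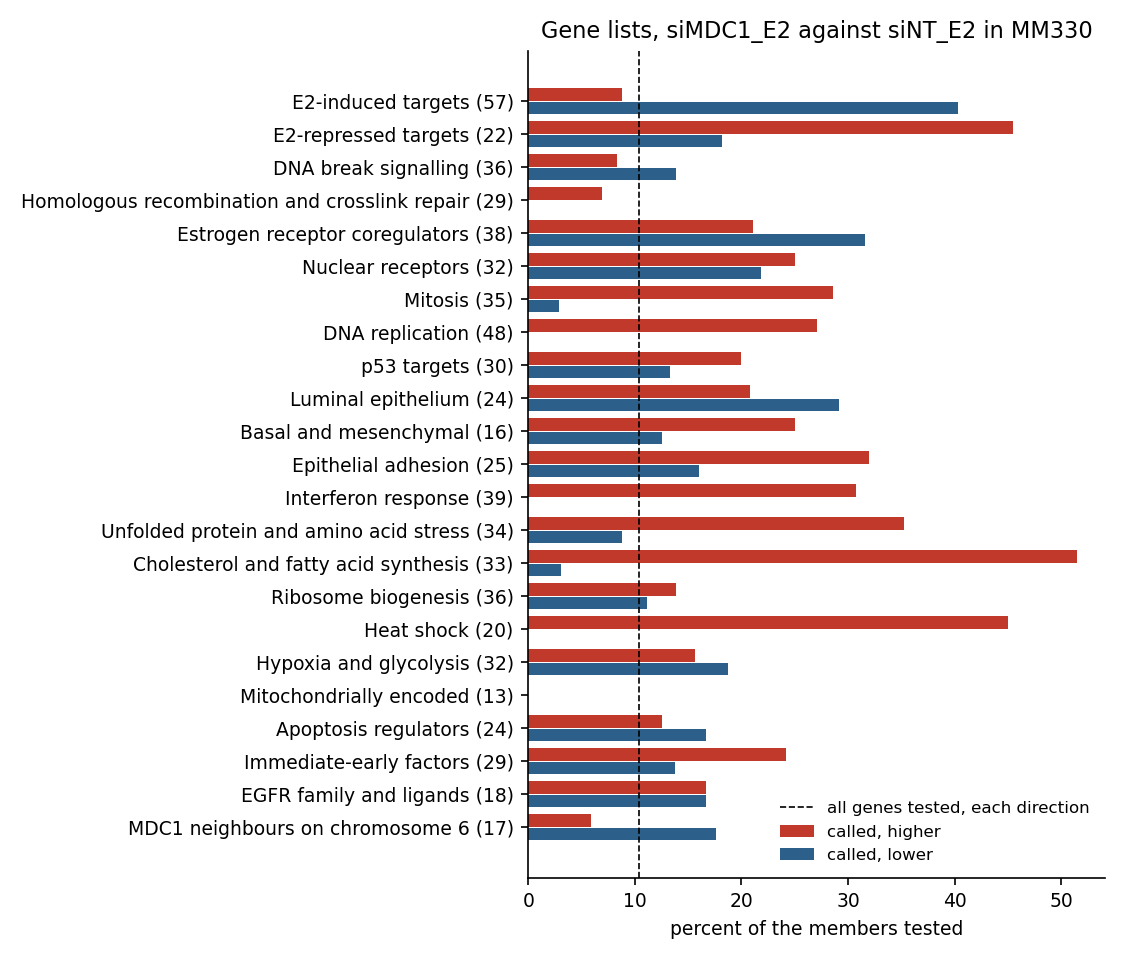
Percent of the tested members of each gene list (number tested in brackets) called higher (red) and called lower (blue) in siMDC1_E2 against siNT_E2. The dashed line marks 10.4%, the percent of all 17834 genes called in each direction. Cholesterol and fatty acid synthesis has 17 of 33 members called higher, and estradiol-induced targets have 23 of 57 called lower.

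Many lipid synthesis genes rose. Of 33 genes of cholesterol and fatty acid synthesis tested, 17 rose and 1 fell, 54.5% called against 20.8% of all genes, with a median of 0.21. Without the libraries of higher pseudogene share, 14 rose and 1 fell. FASN, the fatty acid synthase, had 4112, 3988 and 4029 CPM in siMDC1_E2, against 3073, 3037 and 2835 CPM in siNT_E2 (0.44 ± 0.03, adjusted p = 4.74e-08). SCD, the stearoyl-CoA desaturase, had 5000, 4673 and 4719 CPM in siMDC1_E2, against 3347, 3099 and 3072 CPM in siNT_E2 (0.60 ± 0.05, adjusted p = 1.06e-07). Both were higher in every knockdown library and below their siNT means of 7672 CPM for FASN and 9723 CPM for SCD. FADS2, a desaturase of polyunsaturated fatty acids, had 239, 226 and 229.9 CPM in siMDC1_E2, against 152, 145 and 132 CPM in siNT_E2 (0.70 ± 0.05, adjusted p = 3.99e-08). For FADS2, too, every knockdown library was above every control. SREBF1, a transcription factor that drives this pathway, followed with 832, 812 and 805 CPM in siMDC1_E2, against 621, 626 and 565 CPM in siNT_E2 (0.43 ± 0.04, adjusted p = 1.94e-06) and 1615 CPM on average in siNT. The member that fell was SC5D, a desaturase late in cholesterol synthesis, with 46.7, 45.3 and 44.3 CPM in siMDC1_E2, against 65.8, 65.6 and 73.8 CPM in siNT_E2 (-0.59 ± 0.06, adjusted p = 4.04e-06).

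Several chaperone genes rose by small amounts. Of 20 heat shock genes tested, 9 rose and 0 fell (45% called beside 20.8% of all genes), with a median of 0.11, and 7 rose without the libraries of higher pseudogene share. HSP90AA1, a chaperone of steroid receptors, had 9833, 9235 and 9410 CPM in siMDC1_E2, against 8084, 8125 and 8040 CPM in siNT_E2 (0.23 ± 0.03, adjusted p = 5.37e-05). DNAJB1, a cochaperone of HSP70, had 264, 254 and 263 CPM in siMDC1_E2, against 199, 217 and 208 CPM in siNT_E2 (0.33 ± 0.04, adjusted p = 4.88e-05). HSPA1A, an inducible HSP70, had 1571, 1489 and 1272 CPM in siMDC1_E2, against 1042, 1094 and 1054 CPM in siNT_E2 (0.44 ± 0.07, adjusted p = 0.000137). All 3 were higher in every knockdown library. HSPA1A shares reads with its near copy HSPA1B, so the division of counts between them is uncertain.

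Of 34 genes of the unfolded protein and amino acid stress responses, 12 rose and 3 fell (44.1% called beside 20.8% of all genes), with a median of 0.11, and 10 rose and 1 fell without the libraries of higher pseudogene share. The median lay between 0.06 without siMDC1_E2 replicate 2 and 0.12 without siMDC1_E2 replicate 3. ATF4, the transcription factor of the amino acid response, had 337, 333 and 313 CPM in siMDC1_E2, against 238, 251 and 236 CPM in siNT_E2 (0.44 ± 0.04, adjusted p = 6.66e-07). TRIB3, a pseudokinase that ATF4 induces, had 117, 117 and 116 CPM in siMDC1_E2, against 82.3, 81.8 and 81.8 CPM in siNT_E2 (0.51 ± 0.03, adjusted p = 2.62e-08), and PSAT1, an enzyme of serine synthesis, had 29.8, 30.8 and 31.2 CPM in siMDC1_E2, against 20.03, 20.9 and 19.1 CPM in siNT_E2 (0.61 ± 0.06, adjusted p = 3.13e-06). These 3 were higher in every knockdown library. XBP1, a factor of the unfolded protein response that estradiol also induces, was lower in every one, with 905, 929 and 885 CPM in siMDC1_E2, against 1216, 1269 and 1276 CPM in siNT_E2 (-0.47 ± 0.06, adjusted p = 4.96e-05).

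Some cell cycle genes were called higher by small amounts, and most of these calls were lost without the libraries of higher pseudogene share. Of 35 mitosis genes tested, 10 rose and 1 fell (31.4% called beside 20.8% of all genes), with a median of 0.19. Without those libraries 0 were called higher and 0 lower by edgeR's test (5 higher and 1 lower at an unadjusted p below 0.05), with a median of 0.15, and leaving out 1 library gave 3, 4 and 5 higher without siMDC1_E2 replicates 1, 2 and 3 in turn, and 3, 9 and 4 without siNT_E2 replicates 1, 2 and 3 in turn. Of 48 DNA replication genes, 13 rose and 0 fell (27.1% called beside 20.8% of all genes), with a median of 0.24. Without those libraries 3 were called higher (12 higher and 0 lower at an unadjusted p below 0.05), with a median of 0.24. Leaving out 1 library gave 5, 10 and 7 higher without siMDC1_E2 replicates 1, 2 and 3 in turn, and 7, 12 and 5 without siNT_E2 replicates 1, 2 and 3 in turn. PLK1, a mitotic kinase, had 60.5, 56.7 and 59.7 CPM in siMDC1_E2, against 37.97, 50.2 and 39.2 CPM in siNT_E2 (0.47 ± 0.10, adjusted p = 0.00295, and 0.0655 without those libraries). The knockdown libraries were all higher, and siNT_E2 replicate 2 was the control nearest to them. GINS1, a subunit of the replicative helicase, had 33.4, 36.01 and 32.6 CPM in siMDC1_E2, against 24.6, 23.2 and 21.9 CPM in siNT_E2 (0.55 ± 0.09, adjusted p = 0.000331, and 0.00294 without those libraries). RPA1, which coats single-stranded DNA, had 118, 114 and 116 CPM in siMDC1_E2, against 94.5, 99.99 and 93.2 CPM in siNT_E2 (0.27 ± 0.06, adjusted p = 0.0017, and 0.0332 without those libraries). Neither of these genes' groups overlapped.

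Promoters of mitosis genes often hold a CCAAT box and a cell cycle homology region. They are printed for the called mitosis genes of smallest p that hold both, as the 250 bases before the RefSeq start (GRCh38.p14), 5′ to 3′ on the gene's strand, with matches to CCAAT and TTTGAA on either strand in capitals. The windows are chr16:23678639-23678888 (PLK1), chr5:163460382-163460631 (HMMR) and chr1:43358731-43358980 (CDC20), all on the plus strand.
PLK1: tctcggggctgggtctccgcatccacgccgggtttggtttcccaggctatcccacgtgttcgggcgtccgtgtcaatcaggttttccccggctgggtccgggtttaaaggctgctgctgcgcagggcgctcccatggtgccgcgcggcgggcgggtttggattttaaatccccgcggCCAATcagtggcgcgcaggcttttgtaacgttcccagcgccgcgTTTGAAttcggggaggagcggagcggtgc
HMMR: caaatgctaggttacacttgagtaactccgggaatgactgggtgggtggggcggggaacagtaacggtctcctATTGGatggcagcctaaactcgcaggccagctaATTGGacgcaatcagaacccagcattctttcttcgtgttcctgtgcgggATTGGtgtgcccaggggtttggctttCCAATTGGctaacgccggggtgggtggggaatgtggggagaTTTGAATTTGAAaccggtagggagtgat
CDC20: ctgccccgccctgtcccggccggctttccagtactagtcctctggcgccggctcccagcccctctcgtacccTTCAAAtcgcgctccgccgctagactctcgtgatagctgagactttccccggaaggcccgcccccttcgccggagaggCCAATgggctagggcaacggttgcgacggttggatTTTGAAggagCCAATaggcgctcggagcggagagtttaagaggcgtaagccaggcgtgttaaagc
TTTGAA was found in 15 of 28 mitosis genes present in the promoter table (53.6%) and in 16.1% of all 27305 genes of the table. CCAAT was found in 22 of the 28 (78.6%) and in 10102 of all 27305. HMMR, which binds microtubules and hyaluronan, had 65.2, 64.6 and 63.3 CPM in siMDC1_E2, against 46.5, 55.1 and 53.4 CPM in siNT_E2 (0.32 ± 0.09, adjusted p = 0.021). CDC20, an activator of the anaphase-promoting complex, had 75.2, 76.1 and 70.8 CPM in siMDC1_E2, against 52.6, 65.9 and 59.3 CPM in siNT_E2 (0.32 ± 0.09, adjusted p = 0.023). Both were higher in every knockdown library, with adjusted p values of 0.174 for HMMR and 0.119 for CDC20 without the libraries of higher pseudogene share. Both calls were also lost without siMDC1_E2 replicate 1 or 2 or siNT_E2 replicate 1, and that of CDC20 without siNT_E2 replicate 3.

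Some interferon-response genes were called higher, again with calls that changed with the libraries. Of 39 tested, 12 rose and 0 fell (30.8% called beside 20.8% of all genes), with a median of 0.21. Without the libraries of higher pseudogene share 2 were called higher, BST2 and XAF1, with a list median of 0.22. At an unadjusted p below 0.05 by edgeR's test, 10 were higher and 1 lower without those libraries. Leaving out 1 library gave 9, 6 and 6 higher without siMDC1_E2 replicates 1, 2 and 3 in turn, and 7, 6 and 5 without siNT_E2 replicates 1, 2 and 3 in turn. BST2 (tetherin), which holds enveloped virus particles at the cell surface, had 221, 206 and 209 CPM in siMDC1_E2, against 166, 181 and 176 CPM in siNT_E2 (0.28 ± 0.06, adjusted p = 0.00222, and 0.0334 without those libraries). XAF1, an interferon-induced gene that favours apoptosis, had 1.87, 3.34 and 3.78 CPM in siMDC1_E2, against 0.741, 0.3395 and 0.444 CPM in siNT_E2 (2.55 ± 0.58, adjusted p = 0.0041, and 0.0208). Every knockdown library of both genes was above every control. IFI27, a mitochondrial protein induced by interferon, had 22.2, 59.6 and 56.1 CPM in siMDC1_E2, against 11.5, 14.1 and 14.7 CPM in siNT_E2 (1.78 ± 0.52, adjusted p = 0.0222). Its siMDC1_E2 replicate 1 was much nearer to the controls than the other 2, and the call was lost in 5 of the 6 fits without 1 library (all but that without siMDC1_E2 replicate 1). The siNT means were 199.5 CPM for BST2, 2.500 CPM for XAF1 and 52.7 CPM for IFI27.

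The interferon-stimulated response element was searched as GAAA, any 2 bases and GAAA on both strands and is printed for the called genes of smallest p that hold it, in the same 250 bases, with matches in capitals. The windows are chr19:17405631-17405880 on the minus strand (BST2), chr1:78649539-78649788 on the plus strand (IFI44) and chr6:32853705-32853954 on the minus strand (TAP1).
BST2: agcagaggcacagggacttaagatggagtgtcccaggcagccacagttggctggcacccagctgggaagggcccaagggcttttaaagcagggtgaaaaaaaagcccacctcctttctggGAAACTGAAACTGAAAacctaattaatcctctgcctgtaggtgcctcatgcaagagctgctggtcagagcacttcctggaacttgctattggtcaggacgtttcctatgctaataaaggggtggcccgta
IFI44: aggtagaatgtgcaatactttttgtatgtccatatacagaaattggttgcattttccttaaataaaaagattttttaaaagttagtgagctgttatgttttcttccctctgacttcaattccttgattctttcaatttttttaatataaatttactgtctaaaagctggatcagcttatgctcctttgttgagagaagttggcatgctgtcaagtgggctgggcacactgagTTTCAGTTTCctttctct
TAP1: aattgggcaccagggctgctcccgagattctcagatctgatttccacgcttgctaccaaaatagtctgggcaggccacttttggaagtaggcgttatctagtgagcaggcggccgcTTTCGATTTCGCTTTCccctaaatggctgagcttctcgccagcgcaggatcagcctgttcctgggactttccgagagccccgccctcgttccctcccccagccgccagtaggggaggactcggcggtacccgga
BST2 and TAP1 each hold a pair of overlapping matches, which end 115 and 119 bases before the start, and IFI44 holds 1 match that ends 9 bases before it. The element was found in 21 of 33 interferon-list genes of the promoter table (63.6%), in 8 of the 12 called ones, and in 3.71% of all genes. IFI44, a gene induced by type I interferon, had 1.65, 1.76 and 2.09 CPM in siMDC1_E2, against 0.471, 0.509 and 0.410 CPM in siNT_E2 (1.97 ± 0.50, adjusted p = 0.00918, and 0.0952 without the libraries of higher pseudogene share). TAP1, a peptide transporter of antigen presentation, had 26.3, 28.5 and 28.2 CPM in siMDC1_E2, against 21.4, 25.3 and 19.5 CPM in siNT_E2 (0.33 ± 0.08, adjusted p = 0.0092, and 0.138), a call also lost without siNT_E2 replicate 3. Both were higher in every knockdown library. The estrogen response element was searched in the same 250 bases as GGTCA, any 3 bases and TGACC on both strands. It was found in 0 of 48 estradiol-induced targets of the table and in 14 of all 27305 genes (0.0513%). So rare a match in this window cannot show whether the 48 differ from other genes. AGGTCA, a single arm of it, was found in 7 of the 48 (14.6%) and in 14.6% of all genes.

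Luminal epithelial genes changed in both directions, with falls of the abundant keratins. Of 24 tested, 7 fell and 5 rose (50% called beside 20.8% of all genes), with a median of -0.02, which lay between -0.04 without siMDC1_E2 replicate 1 and -0.01 without siMDC1_E2 replicate 3. Of these genes 3 rose and 6 fell without the libraries of higher pseudogene share, and 3 rose without siMDC1_E2 replicate 3 and 3 without siNT_E2 replicate 3. KRT8, a keratin of simple epithelia, had 2503, 2491 and 2319 CPM in siMDC1_E2, against 3127, 3357 and 3377 CPM in siNT_E2 (-0.43 ± 0.05, adjusted p = 9.00e-06). KRT19, another, had 2137, 2162 and 2128 CPM in siMDC1_E2, against 2690, 2840 and 2799 CPM in siNT_E2 (-0.37 ± 0.04, adjusted p = 2.01e-06). Both were lower in every knockdown library, and the siNT means were 2398 CPM for KRT8 and 2072 CPM for KRT19. ELF3, an epithelial transcription factor, had 65.02, 69.3 and 67.2 CPM in siMDC1_E2, against 99.6, 116 and 121 CPM in siNT_E2 (-0.74 ± 0.07, adjusted p = 1.31e-06). ERBB3, the HER3 receptor, was higher in every knockdown library, with 478, 471 and 459.8 CPM in siMDC1_E2, against 359.5, 355 and 349 CPM in siNT_E2 (0.41 ± 0.03, adjusted p = 7.51e-08). EGFR was higher as well, with 11.1, 11.4 and 11.6 CPM in siMDC1_E2, against 5.86, 5.33 and 5.16 CPM in siNT_E2 (1.06 ± 0.22, adjusted p = 0.00222) and 11.6 CPM on average in siNT.

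Of 18 genes of the EGFR family, its ligands and the ERBB2 region, 3 rose and 3 fell (33.3% called beside 20.8% of all genes), with a median of 0.07, and 3 rose and 2 fell without the libraries of higher pseudogene share. That median lay between -0.0009 without siNT_E2 replicate 3 and 0.12 without siMDC1_E2 replicate 3. The ERBB2 neighbours STARD3 and MIEN1 were called in opposite directions, at 0.29 ± 0.03 and -0.38 ± 0.04. Of 25 epithelial adhesion genes, 8 rose and 4 fell (48% called beside 20.8% of all genes), with a median of 0.09, and 4 rose and 3 fell without the libraries of higher pseudogene share. CTNNB1 (beta-catenin) had 245, 238 and 255 CPM in siMDC1_E2, against 171, 169 and 155 CPM in siNT_E2 (0.57 ± 0.05, adjusted p = 4.17e-07). DSG2, a desmosomal cadherin, had 393, 377 and 394 CPM in siMDC1_E2, against 298, 297 and 282 CPM in siNT_E2 (0.41 ± 0.04, adjusted p = 5.09e-07), and DSC2, another, had 93.1, 91.2 and 92.3 CPM in siMDC1_E2, against 144, 138 and 148 CPM in siNT_E2 (-0.64 ± 0.05, adjusted p = 5.08e-08). CTNNB1 and DSG2 were higher and DSC2 lower in every knockdown library. CDH1 (E-cadherin), whose protein lobular carcinomas often lack, had 825, 845 and 827 CPM in siMDC1_E2, against 882, 897 and 921 CPM in siNT_E2 (-0.11 ± 0.03, adjusted p = 0.0108, and 0.0852 without those libraries), a call also lost without siNT_E2 replicate 3.

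Growth and stress regulators outside these groups were called in both directions. Of 30 p53 targets 6 rose and 4 fell (33.3% called beside 20.8% of all genes), while 2 rose and 3 fell without the libraries of higher pseudogene share, and 2 rose without siMDC1_E2 replicate 2 and 3 without siNT_E2 replicate 3. CCNG1, cyclin G1, had 24.6, 24.03 and 26.5 CPM in siMDC1_E2, against 16.2, 13.1 and 14.4 CPM in siNT_E2 (0.78 ± 0.07, adjusted p = 8.03e-07), and GDF15, a stress-induced cytokine, had 6.33, 6.23 and 5.01 CPM in siMDC1_E2, against 10.2, 9.98 and 14.4 CPM in siNT_E2 (-0.98 ± 0.18, adjusted p = 0.000693). Of 29 immediate-early factors 7 rose and 4 fell (37.9% called beside 20.8% of all genes), while 5 rose and 1 fell without the libraries of higher pseudogene share, and 1 fell without siMDC1_E2 replicate 2, 2 without siMDC1_E2 replicate 3, 2 without siNT_E2 replicate 2 and 2 without siNT_E2 replicate 3. JUNB, a subunit of AP-1, had 62.8, 60.4 and 61.04 CPM in siMDC1_E2, against 39.95, 43.1 and 39.2 CPM in siNT_E2 (0.59 ± 0.05, adjusted p = 2.92e-07). CCNG1 and JUNB were higher and GDF15 lower in every knockdown library. Of 36 ribosome biogenesis genes 5 rose and 4 fell (25% called beside 20.8% of all genes), while 3 rose and 4 fell without the libraries of higher pseudogene share, and 3 rose without siNT_E2 replicate 2, with the nucleolar proteins NOLC1 at -0.44 ± 0.04 and DDX21 at -0.64 ± 0.06. Of 24 apoptosis regulators 3 rose and 4 fell (29.2% called beside 20.8% of all genes), while 2 rose and 1 fell without the libraries of higher pseudogene share, and 2 fell without siMDC1_E2 replicate 1, 1 without siMDC1_E2 replicate 3, 2 without siNT_E2 replicate 1 and 1 without siNT_E2 replicate 3, with APAF1, the core of the apoptosome, at 0.65 ± 0.06. Of 32 hypoxia and glycolysis genes 5 rose and 6 fell (34.4% called beside 20.8% of all genes), while 3 rose and 4 fell without the libraries of higher pseudogene share, and 3 rose without siNT_E2 replicate 3, with the phosphofructokinase PFKP at -0.48 ± 0.06. Of 16 basal and mesenchymal genes 4 rose and 2 fell (37.5% called beside 20.8% of all genes), while 5 rose and 0 fell without the libraries of higher pseudogene share, and 1 fell without siMDC1_E2 replicate 1, 1 without siMDC1_E2 replicate 3, 1 without siNT_E2 replicate 1 and 1 without siNT_E2 replicate 2, with CDH3 (P-cadherin) at 0.41 ± 0.05.

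Among protein-coding genes without overlap between groups and with a mean of 10 CPM or more in either group, the lowest log2 fold changes after MDC1 belonged to HIST1H2BK, GHRHR, TCN1, TAT, MMGT1, THRB and PDZK1. GHRHR and PDZK1 reached that mean in siNT_E2 only, so their place here follows from the group where they are high. HIST1H2BK, a histone H2B gene (chr6:27146418-27146798), had 43.1, 39.4 and 36.05 CPM in siMDC1_E2, against 122, 125 and 131 CPM in siNT_E2 (-1.67 ± 0.06, adjusted p = 4.10e-11). MMGT1, a subunit of the membrane protein complex of the endoplasmic reticulum (chrX:135962070-135974063), had 27.4, 28.6 and 27.4 CPM in siMDC1_E2, against 69.6, 66.7 and 77.2 CPM in siNT_E2 (-1.35 ± 0.06, adjusted p = 1.34e-10). In both genes the knockdown libraries were far below every control, and the siNT means were 144 CPM for HIST1H2BK and 71.7 CPM for MMGT1. Histone genes are near copies of each other, so counts may be shared among them. TAT, the tyrosine aminotransferase, had 13.5, 16.1 and 16.1 CPM in siMDC1_E2, against 39.3, 41.7 and 39.2 CPM in siNT_E2 (-1.39 ± 0.29, adjusted p = 0.00232), with 13.5 CPM on average in siNT. GHRHR, the receptor for growth hormone-releasing hormone, had 3.97, 3.62 and 2.75 CPM in siMDC1_E2, against 10.4, 9.405 and 11.3 CPM in siNT_E2 (-1.59 ± 0.39, adjusted p = 0.00703), with 0.205 CPM in siNT. Both were lower in every knockdown library, which the rule required of each gene in this ranking.

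The highest log2 fold changes by the same rule included those of TMCO1, IFI27, LAMP2, KLF2, MDK, LMNB1 and JPT2. TMCO1 and KLF2 reached a mean of 10 CPM in siMDC1_E2 only, so that their place, too, follows from the group where they are high. TMCO1, a calcium channel of the endoplasmic reticulum (chr1:165724293-165827755), had 32.98, 29.7 and 30.1 CPM in siMDC1_E2, against 9.53, 9.71 and 6.697 CPM in siNT_E2 (1.84 ± 0.12, adjusted p = 2.12e-08). LAMP2, a lysosomal membrane protein, had 132, 129 and 126 CPM in siMDC1_E2, against 53.3, 51.2 and 45.1 CPM in siNT_E2 (1.37 ± 0.05, adjusted p = 5.08e-11). JPT2 had 211, 209.6 and 206 CPM in siMDC1_E2, against 92.1, 91.1 and 80.02 CPM in siNT_E2 (1.25 ± 0.05, adjusted p = 5.08e-11). In all 3 the knockdown libraries were more than 2-fold above every control. LMNB1, lamin B1 of the nuclear envelope, had 182, 180 and 177 CPM in siMDC1_E2, against 76.1, 81.9 and 67.5 CPM in siNT_E2 (1.26 ± 0.11, adjusted p = 3.17e-07). MDK, a heparin-binding growth factor, had 69.5, 73.8 and 67.05 CPM in siMDC1_E2, against 30.1, 31.4 and 26.1 CPM in siNT_E2 (1.26 ± 0.09, adjusted p = 3.05e-08), and KLF2, a zinc finger transcription factor, had 13.2, 14.01 and 12.8 CPM in siMDC1_E2, against 5.32, 6.21 and 4.92 CPM in siNT_E2 (1.28 ± 0.15, adjusted p = 1.20e-05). None of these groups overlapped, which the rule required of each gene.

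Some of these genes were also above siNT_E2 in the other knockdowns, which were compared with the same siNT_E2 libraries. TMCO1 differed from siNT_E2 by 2.06 in siER_E2 and by 1.97 in siFOXA1_E2 on the log2 scale, LAMP2 by 1.37 and 1.65, and JPT2 by 1.23 and 0.44. In siNT, TMCO1 averaged 8.93 CPM, LAMP2 51.5 CPM and JPT2 95.2 CPM. Both control groups carried the non-targeting siRNA, so a change caused by it and a change in the knockdowns cannot be told apart. HIST1H2BK differed from siNT_E2 by -0.29 in siER_E2 and -0.18 in siFOXA1_E2, and MMGT1 by -0.14 and -0.41.

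The called protein-coding genes that lost the most CPM included LASP1, KRT8, KRT19 and CCND1. LASP1, an actin-binding protein, had 12490, 12300 and 12040 CPM in siMDC1_E2, against 13690, 13750 and 14100 CPM in siNT_E2 (-0.17 ± 0.02, adjusted p = 6.02e-05). CCND1 (cyclin D1) had 2823, 2838 and 2759 CPM in siMDC1_E2, against 3303, 3243 and 3405 CPM in siNT_E2 (-0.24 ± 0.08, adjusted p = 0.0373). Both were lower in every knockdown library, but CCND1 lost its call in each of the 6 fits without 1 library. Those that gained the most were SCD, HSP90AA1, ACTG1, FASN and MLLT6. ACTG1 (gamma-actin) had 4646, 4512 and 4641 CPM in siMDC1_E2, against 3293, 3426 and 3157 CPM in siNT_E2 (0.48 ± 0.04, adjusted p = 1.14e-07), with 3304 CPM in siNT, and MLLT6, a chromatin-associated PHD finger protein, had 4405, 4493 and 4306 CPM in siMDC1_E2, against 3814, 3904 and 3564 CPM in siNT_E2 (0.23 ± 0.04, adjusted p = 0.000678). Both were higher in every knockdown library.

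The same knockdown was made in MM134 and HCC1428, whose libraries are separate from those of MM330. MDC1 fell by 2.30 in MM330, 2.13 in MM134 and 1.94 in HCC1428 on the log2 scale. In MM134 8934 of 17744 genes were called (50.3%), and in HCC1428 5319 of 18286 (29.1%). Of 1779 genes called higher in MM330 and tested in MM134, 1231 were called higher there too, which is 69.2% of the MM330 calls and 29.2% of the MM134 calls, and 26.8% of all genes tested in both lines were called higher in MM134. Of 1776 called lower, 1150 were shared, 64.8% of the MM330 calls and 27.6% of the MM134 calls, beside 26.6% of all genes. With HCC1428, 733 of 1809 higher calls were shared (40.5% of the MM330 calls and 32.5% of the HCC1428 calls, beside 14.1% of all genes). Of the lower calls 783 of 1807 were shared (43.3% and 28.3%, beside 17.2%). In the opposite direction, 178 of the 1779 MM330 higher calls and 243 of the 1776 lower ones were called in MM134, beside 26.6% and 26.8% of all genes. In HCC1428 these were 197 of 1809 and 138 of 1807, beside 17.2% and 14.1%. Each of these opposite counts is a smaller share of the MM330 calls than the percent of all genes given beside it. Of the genes tested in all 3 lines, 638 of the 1754 called higher in MM330 (36.4%) and 641 of the 1746 called lower (36.7%) were called in the same direction in both other lines. The percent of all genes called alike in both other lines was not computed, so these counts are not read as high or low. HIST1H2BK, MMGT1 and THRB were among the lower ones, at -1.14, -2.17 and -1.44 in MM134 and at -1.002, -0.97 and -0.97 in HCC1428. TMCO1 was among the higher ones, at 2.15 in MM134 and 1.23 in HCC1428.

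The difference in effect between lines was tested gene by gene over 21447 genes. For MM330 minus MM134, 4462 genes were called (20.8%), 2083 higher (9.71%) and 2379 lower (11.1%). For MM330 minus HCC1428, 2950 were called (13.8%), 1604 higher (7.48%) and 1346 lower (6.28%). ESR1 differed from both lines. In MM134 it averaged 129 ± 0.388 CPM in siMDC1_E2 and 573 ± 7.36 CPM in siNT_E2 (SD, n = 3 each), and the effect in MM330 minus that in MM134 was 1.19 ± 0.07, adjusted p = 5.92e-16. In HCC1428 it averaged 380.3 ± 12.9 CPM in siMDC1_E2 and 413 ± 7.38 CPM in siNT_E2, and the effect in MM330 minus that in HCC1428 was -0.84 ± 0.07, adjusted p = 6.86e-11. The fall of ESR1 in MM330 was thus smaller than in MM134 and larger than in HCC1428. For MDC1 itself the difference was -0.18 ± 0.09, adjusted p = 0.208 from MM134 and -0.36 ± 0.09, adjusted p = 0.00518 from HCC1428, so its fall was deeper in MM330 than in HCC1428.

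Most estradiol-induced targets had a higher effect, that is a smaller fall or a rise, in MM330 than in MM134. In MM134, 49 of 55 tested fell, beside 25.0% of all genes called lower and 25.4% called higher there, with a median of -0.96. The difference MM330 minus MM134 was called higher for 42 of 57 and lower for 2 (9.71% and 11.1% of all genes). Without the libraries of higher pseudogene share it was called higher for 41 and lower for 2. GREB1 averaged 94.8 ± 3.52 CPM in siMDC1_E2 and 570 ± 5.02 CPM in siNT_E2 in that line (SD, n = 3 each), a difference of 2.25 ± 0.08, adjusted p = 1.42e-23. TFF1 averaged 33.5 ± 3.07 CPM in siMDC1_E2 and 65.1 ± 2.26 CPM in siNT_E2, a difference of 0.84 ± 0.14, adjusted p = 1.17e-05. Both had a lower effect in MM134. Against HCC1428, 13 of 57 members were called higher in MM330 and 12 lower (7.48% and 6.28% of all genes), and 9 and 9 without those libraries. Of estradiol-repressed targets, 17 of 22 had a lower effect in MM330 than in MM134 and 1 a higher one (11.1% and 9.71% of all genes). Without those libraries 15 had a lower effect and 1 a higher one.

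Most cell cycle genes had a higher effect in MM330 than in both other lines. In MM134, 27 of 35 mitosis genes and 28 of 48 DNA replication genes fell (25.0% of all genes), with medians of -0.21 and -0.20. In HCC1428, 34 of 35 and 45 of 48 fell (15.9% of all genes), with medians of -0.68 and -0.46. The difference MM330 minus HCC1428 was called higher for 34 mitosis and 43 replication genes (7.48% of all genes), and for 34 and 42 without the libraries of higher pseudogene share. MM330 minus MM134 was called higher for 21 and 31 (9.71% of all genes), and for 17 and 25 without those libraries. PLK1 averaged 36.2 ± 1.11 CPM in siMDC1_E2 and 60.1 ± 2.15 CPM in siNT_E2 of HCC1428 (SD, n = 3 each), and the difference was 1.197 ± 0.11, adjusted p = 4.24e-10.

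**Figure D5:**
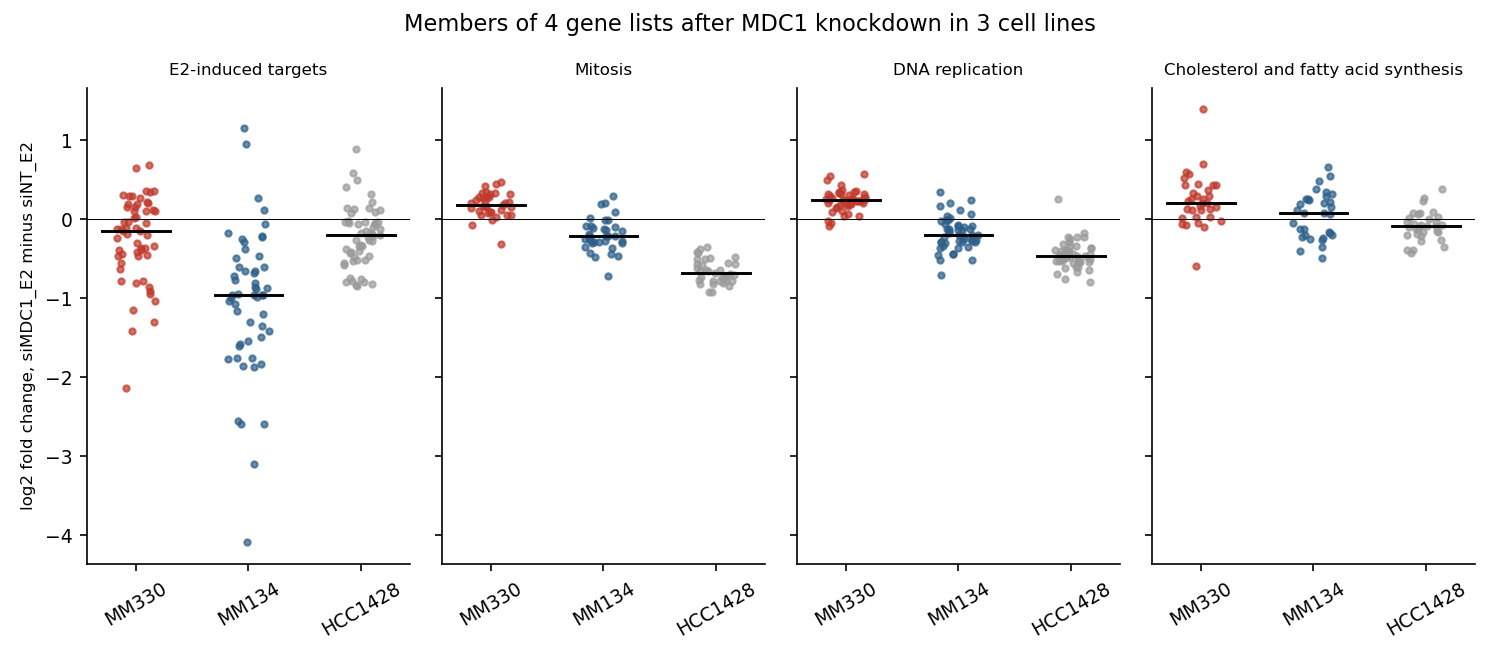
Log2 fold change of siMDC1_E2 over siNT_E2 for the tested members of 4 gene lists (points), with the median as a black line, in MM330, MM134 and HCC1428. Mitosis genes have medians of 0.19, -0.21 and -0.68 in that order of lines, and estradiol-induced targets -0.14, -0.96 and -0.22.

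Many lipid synthesis genes had a higher effect in MM330 than in HCC1428. In HCC1428 3 of 33 rose and 12 fell (13.2% and 15.9% of all genes). The difference was called higher in MM330 for 18 and lower for 1 (7.48% and 6.28% of all genes), and for 14 and 1 without the libraries of higher pseudogene share. In MM134 17 of 32 rose and 11 fell (25.4% and 25.0% of all genes). The difference from MM134 was called higher for 7 and lower for 1 (9.71% and 11.1% of all genes), and for 6 and 0 without those libraries. SCD averaged 2153 ± 69.6 CPM in siMDC1_E2 and 2300 ± 59.6 CPM in siNT_E2 of HCC1428 (SD, n = 3 each), a difference of 0.69 ± 0.07, adjusted p = 1.35e-09. The same gene averaged 806 ± 24.9 CPM in siMDC1_E2 and 577 ± 16.7 CPM in siNT_E2 of MM134, a difference of 0.11 ± 0.07, adjusted p = 0.328. Heat shock genes had a higher effect in MM330 than in MM134 for 16 of 20 and than in HCC1428 for 9 (9.71% and 7.48% of all genes). Without the libraries of higher pseudogene share these were 14 and 8.

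Single genes with the most different effects included LMNB1, which had a higher effect in MM330 than in HCC1428. It averaged 119 ± 3.08 CPM in siMDC1_E2 and 133 ± 2.63 CPM in siNT_E2 of HCC1428 (SD, n = 3 each), a difference of 1.41 ± 0.09, adjusted p = 4.56e-14. IGFBP5, a binding protein of insulin-like growth factors, averaged 905 ± 24.2 CPM in siMDC1_E2 and 351 ± 25.5 CPM in siNT_E2 of HCC1428, and its difference was -1.50 ± 0.10, adjusted p = 1.86e-14. In MM330 IGFBP5 had 23.8, 20.2 and 24.1 CPM in siMDC1_E2, against 24.4, 27.4 and 22.4 CPM in siNT_E2 and was not called. Against MM134, RAPGEFL1, related to Rap guanine nucleotide exchange factors, averaged 25.2 ± 0.754 CPM in siMDC1_E2 and 152 ± 1.31 CPM in siNT_E2 of MM134, a difference of 2.85 ± 0.13, adjusted p = 1.55e-20. In MM330 RAPGEFL1 had 18.6, 21.04 and 18.3 CPM in siMDC1_E2, against 16.1, 17.4 and 14.4 CPM in siNT_E2 and was not called.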

How the data were processed

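Polyadenylated RNA was read from both ends, per the labels. Per the submitters' processing notes, STAR 2.6.0a, limma and GRCh38 were used; of the counting tool, annotation and strand setting the sources used here give nothing. The authors deposited a table of raw counts per gene symbol (57353 symbols, 45 libraries), with no normalization. Of its symbols, 16974 had no count, 2 were repeated and 27 had become dates (0.195% of counts). MM330 libraries held 21.043 to 36.567 M counts. Reads carry no molecular identifiers.

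Groups came from the labels. The 15 MM330 libraries were fitted together in edgeR 4.0.16 (R 4.3.3) with filterByExpr, TMM and the quasi-likelihood test, adjusted by Benjamini-Hochberg within a comparison, and genes were called at an adjusted p below 0.05. Among these libraries, siFOXA1_E2 replicate 1 had counts on 18829 symbols, against 23242 to 25193 in the other MM330 libraries. No fit left out this library alone, so its weight in the shared spread was not tested. The 6 compared libraries alone gave 4578 calls, against 3710. CPM used TMM-scaled totals within a line. Differences between lines were tested as interaction terms, with the 45 libraries in 1 fit. The method was tested on simulated counts drawn around a common mean per gene, with known changes set in some genes. These counts held no difference in pseudogene share between libraries, so the test does not cover it. Gene positions came from GENCODE release 29 (56598 symbols matched) and promoters from RefSeq (GRCh38.p14). The alternatives tried were scaling by RLE, testing without the low-count filter, a replicate block, DESeq2 1.42.0, limma-voom (3.58.1), the 6 libraries alone and leaving out each library or those of higher pseudogene share (above 0.2476%); a term for that share, and its use in the line differences, were added after seeing the data.

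The comparison, the 26 gene lists and the rule for named genes were chosen with earlier results of these data known. The rule took MDC1, ESR1, FOXA1, TMCO1, ERBB2 and the panel of 8, the 8 highest and 8 lowest genes at 10 CPM or more in either group, the 5 largest CPM changes in each direction, up to 4 called members of each list by smallest p, and the 3 highest and 3 lowest of each line difference. Some genes it took are not reported here. TSKU, IGFBP4, RARA, AGR2, SREBF1, SC5D, RNF8, TP53BP1, ATM, RNF168, BRCA1, HMMR, CDC20, TAP1 and CDH1 were chosen outside it after their values were seen.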

Additional observations from a re-analysis of the deposited data

Results flagged for a closer look

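Effects of the MDC1 knockdown that differed between MM330 and another line, by an interaction test at an adjusted p below 0.05, are given as log2 differences, the effect in MM330 minus that in the other line.

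Against MM134, estradiol-induced genes differed by 2.25 for GREB1, 2.79 for PDZK1, 1.02 for RET, 0.84 for TFF1 and 0.8 for MYC, and ESR1 itself by 1.19. PGR differed by 2.55, with 0.0230 ± 0.0398 CPM in siMDC1_E2 and 0.264 ± 0.0675 CPM in siNT_E2 of MM134 (SD, n = 3 each), so its fold there rests on few counts. It was 2.04 without MM134 siMDC1_E2 replicate 3 and 5.14 without MM134 siMDC1_E2 replicate 1. The call was lost without MM134 siMDC1_E2 replicate 2 or 3, MM134 siNT_E2 replicate 1, or the libraries of higher pseudogene share. PDZK1 averaged 3.87 ± 0.654 CPM in siMDC1_E2 and 66.1 ± 3.91 CPM in siNT_E2 of MM134. ERBB2 differed by -0.85, with 195 ± 2.33 CPM in siMDC1_E2 and 102 ± 1.83 CPM in siNT_E2 of MM134. Among genes at 10 CPM or more in MM330, the highest differences were those of SDK2, a cell adhesion protein (5.37), PTGES, a prostaglandin E synthase (2.95), and RAPGEFL1 (2.85). SDK2 averaged 0.0574 ± 0.0526 CPM in siMDC1_E2 and 3.01 ± 0.399 CPM in siNT_E2 of MM134 and PTGES 0.836 ± 0.284 CPM in siMDC1_E2 and 8.87 ± 0.993 CPM in siNT_E2, while in MM330 SDK2 had 24.3, 23.4 and 21.6 CPM in siMDC1_E2, against 29.4, 24.2 and 28.7 CPM in siNT_E2. The lowest were those of FPR3, a formyl peptide receptor (-5.4), ITPRIPL2 (-5.24) and ATP2A3, a calcium pump (-5.19). FPR3 averaged 16.2 ± 0.545 CPM in siMDC1_E2 and 0.512 ± 0.0552 CPM in siNT_E2 of MM134, whereas ITPRIPL2 and ATP2A3 had 0 counts in siNT_E2 of MM134 and means of 0.218 and 0.148 CPM in siMDC1_E2, so their fitted differences depend on the prior count and are no bounds.

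Against HCC1428, MDC1 differed by -0.36, ESR1 by -0.84 and FOXA1 by -0.32. FOXA1 averaged 318 ± 1.700 CPM in siMDC1_E2 and 271 ± 8.53 CPM in siNT_E2 of HCC1428. GREB1 differed by 0.24, PDZK1 by -0.48, PGR by -0.85, ERBB2 by -0.48 and TMCO1 by 0.6. The calls of GREB1 and PDZK1 were lost without the libraries of higher pseudogene share, and that of GREB1 also in 7 of the 12 fits without 1 library. PGR averaged 114 ± 3.26 CPM in siMDC1_E2 and 108 ± 2.53 CPM in siNT_E2 of HCC1428. CXCL12 differed by -1.57, with 0.872 ± 0.177 CPM in siMDC1_E2 and 0.651 ± 0.116 CPM in siNT_E2 of HCC1428. By the same rule, the highest differences were those of LMNB1 (1.41), PIF1, a DNA helicase (1.38), and DEPDC1B (1.22). PIF1 averaged 4.0 ± 0.531 CPM in siMDC1_E2 and 9.43 ± 0.622 CPM in siNT_E2 of HCC1428, and in MM330 it had 12.4, 13.5 and 13.4 CPM in siMDC1_E2, against 9.86, 14.9 and 10.7 CPM in siNT_E2. The lowest were those of APOL6 (-1.55), IGFBP5 (-1.5) and SGK1, a kinase induced by glucocorticoids (-1.47). APOL6 averaged 0.479 ± 0.274 CPM in siMDC1_E2 and 0.148 ± 0.106 CPM in siNT_E2 and SGK1 0.5598 ± 0.264 CPM in siMDC1_E2 and 0.3102 ± 0.118 CPM in siNT_E2 of HCC1428, few counts in both. Both calls were lost without the libraries of higher pseudogene share and without HCC1428 siMDC1_E2 replicate 3, and that of APOL6 without HCC1428 siNT_E2 replicate 3. The difference of APOL6 lay between -2.16 and -1.05 without 1 library.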

How the results depend on the processing

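Calls between siMDC1_E2 and siNT_E2 numbered 3710. Of the alternatives, the fit without the libraries of higher pseudogene share, with 2 libraries in each compared group, gave 2208 calls, and 145 in place of 235 among the 659 tested list genes. RLE scaling, no filter on low counts, DESeq2, limma-voom, the pseudogene term and the 6 libraries alone gave 3638 to 4578 calls, and 235 to 313 among list genes. Leaving out 1 library gave 2672 to 3261 calls, and 171 to 202 among list genes. The 3710 genes had the same sign in all alternatives in which they were tested.

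The difference MM330 minus MM134 had 4462 calls, 3941 to 4222 without 1 library and 3707 without the libraries of higher pseudogene share. MM330 minus HCC1428 had 2950 calls, 2414 to 2916 without 1 library and 2007 without those of higher pseudogene share. DESeq2 called 5245 and 3802. For MM330 minus HCC1428 the main fit had 1604 higher and 1346 lower calls. That balance turned round with RLE scaling (1525 higher and 1637 lower) and with DESeq2 (1800 and 2002), but in no other fit. For MM330 minus MM134 the main fit had 2083 higher and 2379 lower calls. This balance turned round without the low-count filter (1983 higher and 1920 lower). It also did without MM330 siMDC1_E2 replicate 3 (2058 and 2038) and without MM330 siNT_E2 replicate 2 (2152 and 2070).

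Deviations of same-numbered libraries from their group means correlated at -0.458, 0.332 and -0.418, while siMDC1_E2 replicate 3 and siNT_E2 replicate 1, both of higher pseudogene share, correlated at 0.653. The sign was positive only where both libraries were of higher share or neither was. The check therefore cannot tell whether replicate numbers pair the samples. With the replicate number as a block, 3526 genes were called, 221 of them list genes, and 4300 and 2431 for the differences from MM134 and HCC1428.

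Values that turned round were none of them called. APOL6 in MM330 was at 0.0534 without the libraries of higher pseudogene share and ranged between -0.0508 and 0.0356 without 1 library. TCN1 for MM330 minus MM134 was at -0.3326 in limma-voom. For MM330 minus HCC1428, MYC ranged between -0.0108 and 0.1059 without 1 library, and RET between -0.0584 and 0.0457, with 0.0794 without the libraries of higher pseudogene share. The cause was not tested. Genes with few counts a library, such as CXCL12 at 12 to 36, limit what can be called.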
